A study of Mus musculus with 6 samples.

Results

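The brakes on phosphoinositide 3-kinase (PI3K) signalling encoded by 5 genes were followed in the open chromatin of tumor-infiltrating CD8 T cells, through 128 of the 74686 regions of a deposited count table. The genes were Inpp4a, Inpp4b, Inpp5d, Pik3ip1 and Phlpp1. A region was a member where it shared at least 1 base with one of these genes (112 regions), or lay between genes with one of them as nearest protein-coding gene within 100 kb (16 regions). Positions are GRCm38, as deposited, and gene intervals are those of RefSeq GRCm38.p6. The 5 genes were chosen by the accessibility difference of their regions between the groups compared here. All values of that comparison at these genes are therefore a description, and no p-value is read from them.

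Accessibility was read by ATAC-seq, which cuts and tags open DNA with a loaded transposase. The profiled CD8 T cells bore OT1, a transgenic receptor that sees an ovalbumin peptide. They had been sorted for CD8 and CD45.1, a congenic marker, out of tumors named B16-OVA-GP61, after the B16 mouse melanoma line and the antigens ovalbumin and GP61. The 2 groups of 3 libraries were tumors without SMARTA cells (the SMARTA-free group) and tumors with them (the SMARTA group), SMARTA being a transgenic CD4 T cell receptor for GP61. The sources used here give no age or strain of the mice and do not say whether each library came from its own animal. Cells had been frozen in DMSO after the sort until all samples were collected.

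Libraries held 16595779 to 27182809 counts in the regions, and the median region held 62 to 114. Regions at 7 T cell marker genes summed to 972 to 1110 CPM (counts scaled to a fixed library total) without SMARTA cells and 975 to 1090 with them, and those at Cd8a and Cd8b1 to 192 to 211 and 196 to 217. All 9 of these genes held regions. Among markers of other cells the summed levels were 146 to 165 and 160 to 184 CPM at 4 CD4 T cell genes, and 248 to 265 and 265 to 299 at 7 melanoma genes. They were 74.0 to 86.4 and 70.7 to 74.8 at 5 B cell genes, 145 to 151 and 147 to 151 at 6 myeloid genes, 16.2 to 23.2 and 10.9 to 18.4 at 2 NK cell genes, and 41.6 to 44.1 and 42.9 to 43.5 at 5 stromal genes. Of the 7 melanoma genes, Tyr, Dct, Sox10 and Tyrp1 held no region, so the melanoma sum came from 6 regions at Mitf, Pmel and Mlana. Ms4a1, Lyz2, Adgre1, Ncr1 and Col1a2 held no region either. The part of other cells in the results was not tested.

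PI3K is activated below the T cell receptor and costimulatory receptors and turns a membrane phosphoinositide into the lipid messenger PIP3, which recruits the kinase AKT. The 5 genes act against this route at several steps. Pik3ip1 encodes a transmembrane protein that binds and restrains the catalytic subunit of PI3K. Inpp5d encodes SHIP-1, the blood-cell phosphatase that converts PIP3 into a bisphosphate which can itself still bind AKT. Inpp4a and Inpp4b encode the phosphatases that remove the next phosphate from that product. Phlpp1 encodes a protein phosphatase that dephosphorylates AKT itself.

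A deposited peak lay at a RefSeq start of each gene in every library, although a further start of Inpp4a had none in any. Promoter sequences from RefSeq (GRCm38.p6, plus strand, from 250 bases before to 50 bases after a start) are shown for Inpp4b and Phlpp1, whose interiors held most of the closed regions, and for Inpp5d and Pik3ip1, which held no closed region. They are chr8:81342312-81342611, chr1:106171619-106171918, chr1:87620062-87620361 and chr11:3330481-3330780. In each of the 6 deposited peak lists, a peak overlapped each of these 4 promoters. Capitals mark matches, on either strand, to 7 short motifs (AP-1 TGANTCA, NFAT TGGAAA, RUNX TGTGGT, TCF/LEF TCAAAG, FOXO GTAAACA, ETS CCGGAAG and KLF/SP GGGCGG).
Inpp4b: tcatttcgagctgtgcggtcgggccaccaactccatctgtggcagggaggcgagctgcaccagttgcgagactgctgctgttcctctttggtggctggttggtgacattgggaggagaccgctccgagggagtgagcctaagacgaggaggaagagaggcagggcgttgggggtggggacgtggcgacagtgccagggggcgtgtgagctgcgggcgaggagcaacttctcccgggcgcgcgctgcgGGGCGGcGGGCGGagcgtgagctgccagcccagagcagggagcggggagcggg
Phlpp1: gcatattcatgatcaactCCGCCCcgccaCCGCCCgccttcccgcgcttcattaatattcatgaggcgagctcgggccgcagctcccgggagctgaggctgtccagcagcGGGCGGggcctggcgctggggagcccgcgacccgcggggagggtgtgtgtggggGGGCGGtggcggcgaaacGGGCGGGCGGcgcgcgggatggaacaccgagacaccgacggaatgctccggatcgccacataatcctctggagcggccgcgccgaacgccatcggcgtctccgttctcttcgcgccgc
Inpp5d: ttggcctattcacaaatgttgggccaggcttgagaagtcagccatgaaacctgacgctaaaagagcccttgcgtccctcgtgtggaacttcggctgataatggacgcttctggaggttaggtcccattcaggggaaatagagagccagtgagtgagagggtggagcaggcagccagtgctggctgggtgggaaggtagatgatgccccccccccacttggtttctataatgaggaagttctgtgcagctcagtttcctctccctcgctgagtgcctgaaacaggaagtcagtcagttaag
Pik3ip1: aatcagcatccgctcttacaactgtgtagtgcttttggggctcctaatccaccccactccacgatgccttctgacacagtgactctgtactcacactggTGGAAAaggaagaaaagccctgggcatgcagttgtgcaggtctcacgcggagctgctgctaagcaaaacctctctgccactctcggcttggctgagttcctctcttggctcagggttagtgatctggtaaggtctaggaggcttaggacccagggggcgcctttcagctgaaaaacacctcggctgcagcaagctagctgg
The Phlpp1 promoter had 70.7% G and C and 42 CpG dinucleotides, and that of Inpp4b 68.3% and 25. The promoters of Inpp5d (53.7%, 6 CpG) and Pik3ip1 (54.7%, 7 CpG) were near the median of all 32851 RefSeq promoters, which was 52.7% and 7 CpG. KLF/SP letters occurred 6 times at Phlpp1, with 1 overlapping pair, and 2 times at Inpp4b, and in 35.7% of all promoters. NFAT letters occurred 1 time at Pik3ip1, and in 21.4% of all promoters. The other motifs occurred in none of the 4 sequences; AP-1 was in 7.81% of all promoters, RUNX in 16.8%, TCF/LEF in 16%, FOXO in 3.65% and ETS in 8.86%. The promoters at the Inpp4a starts are not shown, and the first 2 overlap each other. They had 60.0%, 63.7% and 54.3% G and C, with 15, 21 and 7 CpG. NFAT letters occurred 1 time in each, and KLF/SP letters 3, 4 and 0 times. A link between promoter sequence and closed regions was not tested. A match is a run of letters and not a measured binding site.

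The comparison sets CD8 T cells from tumors that held SMARTA CD4 T cells against those from tumors that did not. A region is called closed or opened where its level with SMARTA cells was below or above that without, at an edgeR adjusted p below 0.05 over the whole table. Log2 folds are with minus without. Of the 128 member regions, 33 were closed and 2 opened, that is 25.8% and 1.56%, beside 10.4% closed and 4.68% opened over all regions; nothing is read from these shares, since that difference chose the genes. The 33 lay at 3 genes: 23 of 73 regions at Inpp4b, 8 of 27 at Phlpp1 and 2 of 11 at Inpp4a. Inpp5d held neither kind among its 12 regions, and Pik3ip1 held 1 opened region of 5. The median log2 fold was -0.37 at Inpp4b, -0.48 at Phlpp1, -0.12 at Inpp4a, 0.13 at Inpp5d and 0.22 at Pik3ip1, and 0.01 over all regions. Of the closed regions 30 had a fall of 2-fold or more. All 3 libraries with SMARTA cells lay below all 3 without in 46 member regions, and above in 10 (18.5% and 15.7% of all regions). In bulk material, fewer cells with an open site and a less open site in each cell cannot be told apart.

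**Figure D1:**
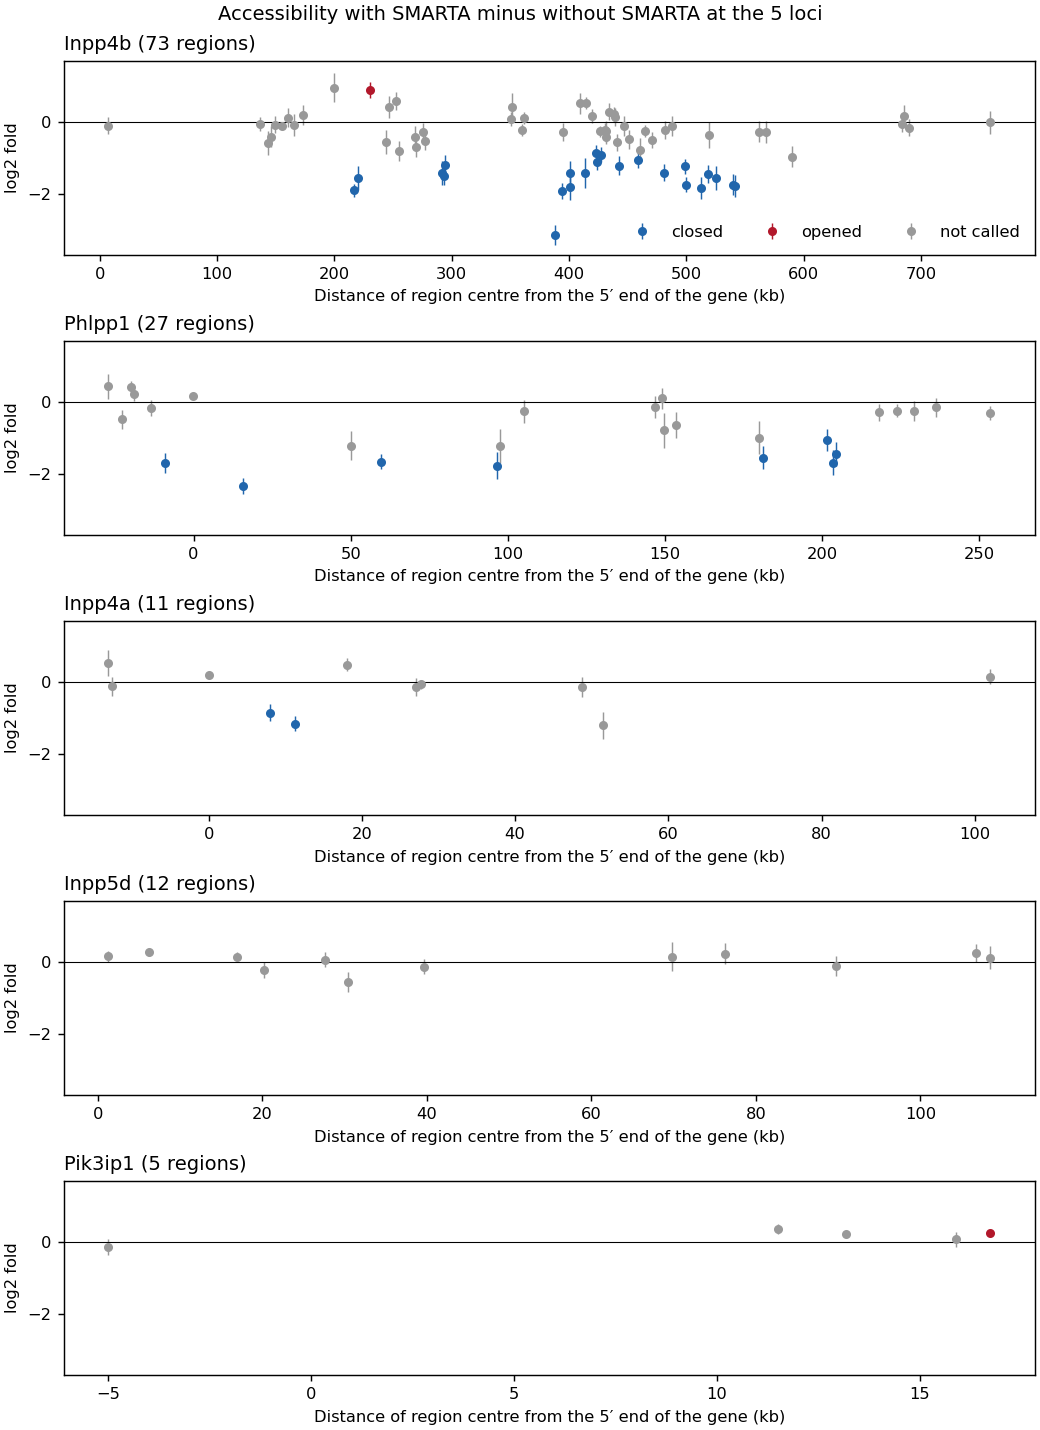
Log2 fold (with minus without SMARTA cells, bars ± SE, 3 libraries a group) of each region against its distance in kb from the 5′ end of its gene. At Inpp4b the 23 closed regions lie between 216.4 and 541.1 kb, at Phlpp1 the 8 closed regions surround a start region near 0, and Inpp5d has none.

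Of the closed regions 32 lay inside a gene and 1 between genes, and the 5 member regions within 2 kb of a RefSeq start were neither closed nor opened. Over the whole table, 2.94% of regions within 2 kb of a start were closed and 5.72% opened, against 12.1% and 4.63% of those inside a gene and farther from its starts. The farthest intergenic member lay 30.95 kb from Phlpp1, with a log2 fold of -0.31.

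Inpp4b, chromosome 8, 81342266 to 82134312, is the longest of the genes at 792 kb and held 73 regions, all inside it. Its closed regions formed a central stretch. The first 10 regions, from 7.4 to 199.3 kb, held 0 closed regions. The next 56, from 216.4 to 541.1 kb, held all 23 closed regions and the 1 opened region, and the last 7, from 562.0 to 759.1 kb, held none. The median log2 fold was -0.08, -0.55 and -0.16 in these stretches, whose limits were set from the calls.

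The Inpp4b region with the smallest p (81730386 to 81730786, 388.3 kb from the 5′ end) had 104, 235 and 217 counts without SMARTA cells and 19, 15 and 20 with them. That is 2.40, 3.19 and 3.18 log2 CPM against 0.08, -0.01 and -0.25, a log2 fold of -3.16 ± 0.28 (SE). The groups lay far apart, and a peak was called there in 3 lists without and 0 with SMARTA cells. The region at 216.4 kb (81558510 to 81558910) began at a higher level, with 5.13, 4.55 and 5.03 log2 CPM against 2.92, 3.03 and 3.15. Its log2 fold was -1.90 ± 0.18, the groups did not overlap, and a peak stayed in all 6 lists. The region at 393.7 kb (81735784 to 81736184) had 3.64, 4.14 and 4.26 log2 CPM without and 2.30, 2.02 and 2.06 with SMARTA cells (-1.93 ± 0.22). It lies 5.4 kb from the first of these, and the groups did not overlap in either. The region at 499.5 kb (81841542 to 81841942) had 2.28, 2.28 and 2.09 log2 CPM against 0.74, 0.50 and 0.36 (-1.75 ± 0.21), also without overlap. All 4 stayed closed when any 1 library was left out.

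Some closed and uncalled regions lay side by side. Near 427 kb, a region (81766100 to 81766500) had 4.20, 4.48 and 4.55 log2 CPM without and 3.64, 2.94 and 3.22 with SMARTA cells (-1.13 ± 0.21, closed). The next one, 2.07 kb on, was more accessible, with 4.90, 4.82 and 4.99 against 4.92, 4.41 and 4.56 (-0.26 ± 0.15, not called), and its groups overlapped. A further 0.95 kb on, the third had 3.96, 4.22 and 4.08 against 3.52, 2.83 and 3.11 (-0.92 ± 0.21, closed). These 3 were chosen after their values were seen. Of the 39 pairs of neighbouring Inpp4b regions with centres at most 5 kb apart, both were closed in 7, 1 of them in 12 and neither in 20. These counts were not compared with those of a random order, so they do not show whether mixed pairs were many or few.

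The most accessible Inpp4b region (81497565 to 81497965, 155.5 kb) lay before the central stretch. It had 6.26, 6.12 and 6.02 log2 CPM without and 6.16, 5.80 and 6.13 with SMARTA cells (-0.10 ± 0.10), and the groups overlapped. The member region nearest the start (81349422 to 81349822, 7.4 kb) was weak, with 1.25, 1.12 and 1.38 against 0.86, 1.13 and 1.40. The opened region at 230.5 kb (81572565 to 81572965) had 1.73, 1.24 and 1.76 against 2.33, 2.71 and 2.37 (0.90 ± 0.22), without overlap. It was no longer called without replicate 2 or 3 of the SMARTA-free group or replicate 3 of the SMARTA group. The closed region nearest the call threshold (413.8 kb) had 1.13, 1.53 and 1.24 log2 CPM against 0.60, -1.60 and 0.04 (-1.43 ± 0.42), and was called in 2 of the 6 settings that left out 1 library. It lay 0.70 kb from a stronger but longer region (779 bases against 400), with 4.35, 3.79 and 4.13 against 4.65, 4.38 and 4.83 (0.53 ± 0.18, not called). Levels are not scaled for length. In that longer region the libraries with SMARTA cells were the higher ones. The nearest region outside the threshold (589.7 kb) had a log2 fold of -0.97 ± 0.29.

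A region at the Inpp4b start (81341620 to 81342020, 246 bases before it) falls inside the overlapping gene Gm51582 and so outside the rule. It had 4.72, 4.49 and 4.98 log2 CPM without and 4.50, 3.96 and 4.16 with SMARTA cells. The groups overlapped, and the log2 fold was -0.52 ± 0.18, which was not called.

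Summed over its regions, Inpp4b had 9.03, 8.88 and 9.07 log2 CPM without and 8.70, 8.27 and 8.53 with SMARTA cells, a difference of -0.49 without overlap. The 23 closed regions held on average 39.6% of the locus's counts without and 19.6% with SMARTA cells. Averaged over all libraries, closed regions had a median of 1.64 log2 CPM and the others 1.28.

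**Figure D2:**
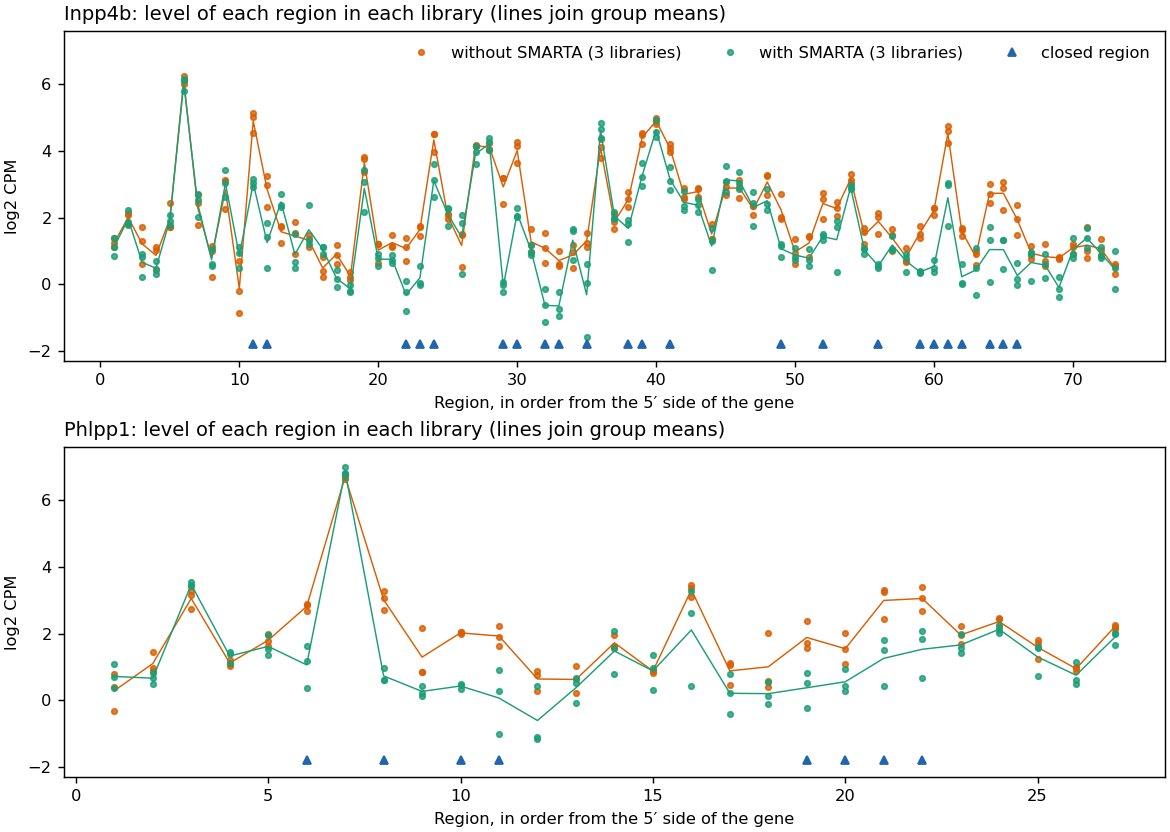
Level (log2 CPM) of each region of Inpp4b and Phlpp1 in each of the 6 libraries, with regions in order from the 5′ side and lines through the group means. Blue triangles mark the 23 and 8 closed regions; the tall peaks at 6.08 log2 CPM in Inpp4b and 6.80 in Phlpp1 have overlapping groups.

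Phlpp1, chromosome 1, 106171869 to 106394245, held 27 regions, 16 of them inside the gene. Closed regions stood on both sides of an open start: 1 lay 9.1 kb before it and 7 inside the gene. The start region (106171356 to 106171756, centre 313 bases before the start) was the most accessible of all 128. It had 6.64, 6.79 and 6.71 log2 CPM without and 6.84, 7.02 and 6.77 with SMARTA cells, a log2 fold of 0.16 ± 0.07 that was not called, and the groups overlapped. The nearest region inside the gene (106187456 to 106187856, 15.8 kb) had 168, 251 and 155 counts without and 28, 24 and 50 with SMARTA cells. In log2 CPM that is 3.08, 3.28 and 2.70 against 0.60, 0.62 and 0.97 (-2.35 ± 0.23), the deepest fall at Phlpp1, with no overlap. The upstream region at -9.1 kb (106162533 to 106162933) had 2.89, 2.87 and 2.69 log2 CPM against 1.63, 0.37 and 1.18 (-1.70 ± 0.28), also without overlap.

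Farther into Phlpp1, the region at 59.7 kb (106231335 to 106231735) had 2.04, 1.99 and 2.04 log2 CPM without and 0.33, 0.50 and 0.45 with SMARTA cells (-1.66 ± 0.20). Spread within either group there was small beside the gap between them. Near the 3′ end, 3 closed regions stood within 2.8 kb, from 201.5 to 204.3 kb. The middle one (106374965 to 106375365) had 3.30, 3.24 and 2.45 against 1.81, 0.44 and 1.52 (-1.69 ± 0.34), without overlap. The first of the 3 was the closed region nearest the call threshold (-1.06 ± 0.30, called in 2 of the same 6 settings), and the nearest region outside the threshold, at 50.2 kb, had -1.22 ± 0.40. Beyond the last closed region, 5 regions out to 253.5 kb were not called, with a median log2 fold of -0.25. The count of closed regions at Phlpp1 fell from 8 to 5 without replicate 3 of the SMARTA group.

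Summed, Phlpp1 had 7.76, 7.77 and 7.62 log2 CPM without and 7.50, 7.52 and 7.52 with SMARTA cells, a difference of -0.21 without overlap. The start region alone held 56.0% of the counts. It ends just before the gene. With the 16 regions inside the gene alone, which leaves out that one and the other intergenic regions, the difference was -1.15. The 8 closed regions held 21.7% of the locus's counts without and 7.83% with SMARTA cells.

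Inpp4a, chromosome 1, 37299827 to 37410740, held 11 regions, 2 of them closed and adjacent in its first part. The one at 11.3 kb (37310950 to 37311350) had 2.31, 2.71 and 2.75 log2 CPM without and 1.65, 1.39 and 1.38 with SMARTA cells (-1.16 ± 0.21). The groups did not overlap, and it stayed closed when any 1 library was left out. The one at 8.0 kb (37307605 to 37308005) had 2.64, 3.10 and 3.14 against 1.81, 2.44 and 2.11 (-0.85 ± 0.23), likewise apart. It was the nearest to the threshold from inside, and stayed closed in 2 of the 6 settings that left out 1 library. The count of closed regions fell to 1 without replicate 2 or 3 of the SMARTA-free group, and without replicate 1 or 3 of the SMARTA group. The region nearest the threshold from outside, at 51.5 kb, had a log2 fold of -1.21 ± 0.37. The start region (37299625 to 37300025) was the most accessible, with 5.36, 5.42 and 5.56 against 5.62, 5.68 and 5.67 log2 CPM (0.21 ± 0.08, not called), and its groups did not overlap. Summed over the locus the groups overlapped, at 6.86, 7.03 and 7.08 against 7.06, 7.07 and 7.01 log2 CPM.

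Inpp5d, chromosome 1, 87620312 to 87720510, held no called region among 12, with log2 folds from -0.56 to 0.27. At an unadjusted edgeR p below 0.05 there was 1 of the 12, and neither DESeq2 nor leaving out any 1 library gave a call. Its most accessible region (87626371 to 87626771, 6.3 kb), also the nearest to the threshold, had 5.50, 5.87 and 5.85 log2 CPM without and 6.01, 5.93 and 6.12 with SMARTA cells (0.27 ± 0.11). All libraries with SMARTA cells lay above those without. The region nearest the start (87621419 to 87621819, 1.3 kb) had 4.90, 5.04 and 5.27 against 5.37, 4.89 and 5.39 (0.16 ± 0.15), with overlap. The locus sum was 7.06, 7.25 and 7.26 against 7.38, 7.21 and 7.45 log2 CPM, with overlap.

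Pik3ip1, chromosome 11, 3319241 to 3342971, is the shortest at 23.7 kb. Its 5 regions had log2 folds from -0.14 to 0.37 and none was closed. The opened region (3335778 to 3336178, 5.25 kb past the RefSeq start shown above, which lies within the gene interval) had 5.65, 5.54 and 5.63 log2 CPM without and 5.86, 5.88 and 5.87 with SMARTA cells. The log2 fold was 0.26 ± 0.07 and the groups did not overlap, but the call was lost in all 6 settings that left out 1 library, and with total-count scaling, loess scaling or DESeq2. The most accessible region (3332211 to 3332611, 1.68 kb past the same start) had 6.51, 6.61 and 6.59 against 6.76, 6.92 and 6.68 (0.22 ± 0.07, not called), without overlap. The region on the start itself (3330537 to 3330937) had 4.14, 3.99 and 4.18 against 4.38, 4.59 and 4.46 (0.37 ± 0.14, not called), again without overlap. The locus sum was 7.47, 7.44 and 7.48 against 7.68, 7.76 and 7.64 log2 CPM, a difference of 0.23.

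**Figure D3:**
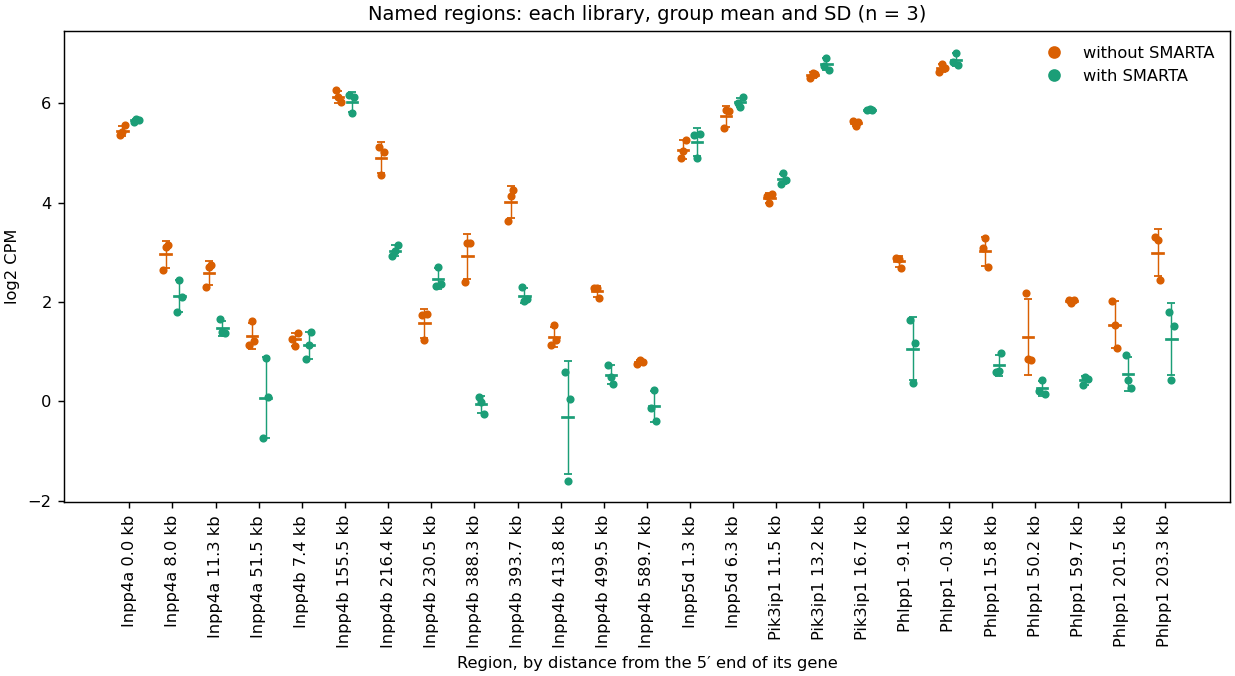
Level (log2 CPM) of the 25 named regions in each library, with group mean (bar) and SD (n = 3), by gene and distance in kb from the 5′ end. The named closed regions of Inpp4b, Phlpp1 and Inpp4a, picked by their calls in this same comparison, separate by group. The most accessible region of each gene has a log2 fold of 0.27 or less in size. Those of Inpp4a, Inpp5d and Pik3ip1 also separate by group.

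Levels over all 6 libraries were not used to choose the genes. All regions compared here are 400 bases long as deposited. The most accessible region was that of Phlpp1 at 6.80 ± 0.13 log2 CPM (SD, n = 6), followed by Pik3ip1 at 6.68 ± 0.15, Inpp4b at 6.08 ± 0.16, Inpp5d at 5.88 ± 0.21 and Inpp4a at 5.55 ± 0.13. Phlpp1 and Pik3ip1 differed by less than the larger of their SDs, but Phlpp1 was the higher in every library. Inpp4b and Inpp5d also differed by less than the larger SD. Inpp4b was the higher of these in every library except replicate 2 with SMARTA cells. At the starts the order was Phlpp1, Inpp4a at 5.55 ± 0.13, the region before Inpp4b at 4.47 ± 0.37 and Pik3ip1 at 4.29 ± 0.22. The last pair differed by less than the larger SD, and its order was not the same in both groups. The means before Inpp4b and at Pik3ip1 were 4.73 and 4.10 without SMARTA cells, and 4.20 and 4.48 with them. No member region overlapped the Inpp5d promoter, and the nearest, 1.31 kb past the start, had 5.14 ± 0.23.

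Order within a group does not depend on the comparison between groups. At Inpp4b, replicate 2 without SMARTA cells was the lowest of its group in 49 of 73 regions (67.1%, against 31.4% of all regions), and replicate 2 with them in 42 (57.5%, against 38.1%). In a split that uses the calls, among the 50 Inpp4b regions that were not closed, replicate 2 without SMARTA cells was the lowest in 40, and among the 23 closed ones in 9, where replicate 1 was the lowest in 12. At Phlpp1, replicate 3 without SMARTA cells was the lowest in 15 of 27 regions (55.6%, against 27.8% of all regions), that is in 7 of the 8 closed ones and 8 of the other 19. At Inpp4a, replicate 1 without SMARTA cells was the lowest in 10 of 11 regions (90.9%, against 40.8% of all regions). The median SD within a group over the 128 regions was 0.25 without and 0.30 with SMARTA cells, against 0.19 and 0.25 over all regions. The 128 regions were not matched for level with the others. These SDs therefore do not show more spread than in other regions of like level. Regions of 1 gene share their libraries and are not independent. A single library stood far off in the Phlpp1 region at 149.7 kb, where replicate 2 with SMARTA cells had 0.44 log2 CPM and its group mates 2.61 and 3.28. That region was chosen after its values were seen.

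In the authors' per-library peak lists, peaks lay on 20, 22 and 23 of the 23 closed Inpp4b regions without SMARTA cells and on 14, 8 and 10 with them. On all 73 regions the numbers were 56, 64 and 66 against 60, 35 and 52. At Phlpp1, peaks lay on all 8 closed regions in each list without SMARTA cells and on 6, 0 and 4 with them. Closed regions were chosen for lower counts with SMARTA cells in these same libraries. Fewer peaks on them there is therefore no separate evidence. At Inpp5d they lay on 9, 11 and 11 of 12 regions against 11, 9 and 12, and at Pik3ip1 on 4, 4 and 4 of 5 against 5, 4 and 4. The lists held 73012, 82089 and 81223 peaks without and 76850, 65020 and 75261 with SMARTA cells, so the shortest list was that of replicate 2 with them. Inside Inpp4b a further 16, 9 and 19 peaks without and 14, 7 and 7 with SMARTA cells overlapped no region of the count table.

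Among 4953 genes with at least 5 regions, the summed level of Inpp4b over the 6 libraries was most like that of Vwa8 (Pearson r = 0.994), F13a1 (0.992) and Prmt8 (0.991). Phlpp1 was most like Srcin1 (0.983), Faxc (0.981) and Atg5 (0.971), and Inpp4a most like Bcl9l (0.980), Ptpn18 (0.972) and Ctnnbl1 (0.969). Inpp5d was most like Arl6ip5 (0.995), Leprotl1 (0.995) and Nipbl (0.993), and Pik3ip1 most like Snx31 (0.999), Ubtd2 (0.997) and Nr6a1 (0.989). These are orderings over the same 6 libraries, with sums scaled for depth. The sums of Inpp4b, Phlpp1 and Pik3ip1 separated by group. A high r there in part restates the difference that chose the genes. An r above 0.95 was reached by 89 genes for Inpp4b, 13 for Phlpp1, 8 for Inpp4a, 56 for Inpp5d and 92 for Pik3ip1. With only 6 libraries, some of the 4953 genes can reach such an r without any link. How many was not estimated.

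The rest of the pathway was read from 5 lists with 87 genes, of which 86 held 722 regions. Of these regions 76 closed (10.5%) and 33 opened (4.57%), shares close to the 10.4% and 4.68% of all regions, and the median log2 fold was 0.00. Closed regions without opened ones lay at 24 genes, opened ones alone at 16, both at 10 and neither at 36. By list, closed and opened regions were 17 and 4 of 133 at class I PI3K subunits and adaptors, and 17 and 9 of 137 at other phosphoinositide phosphatases. They were 11 and 5 of 90 at other phosphoinositide kinases, 11 and 9 of 141 in the AKT arm, and 20 and 6 of 221 at lipid-binding readers and docking proteins. Median log2 folds were -0.08, 0.03, -0.01, -0.01 and 0.02 in the same order.

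The pathway genes named from here on were picked for their called regions, and the region shown for its small p. Their folds, p-values and counts are therefore a description too, and no p-value is read as support. Over all regions 10.4% were closed and 4.68% opened. Plekha1 encodes TAPP1, an adaptor that binds the lipid on which the INPP4 phosphatases act. Plekha1 held 4 closed (57.1%) and 0 opened of 7 regions. Its region with the smallest p, 11 kb from the gene, fell from 2.52 ± 0.04 to -0.54 ± 0.65 log2 CPM (SD over 3 libraries a group), at a log2 fold of -3.11 ± 0.29 and an edgeR adjusted p = 0.0003, and 4 regions closed in every setting that left out 1 library. Among kinases, Pip4k2a, a phosphoinositide phosphate kinase, held 10 closed (22.7%) and 0 opened of 44 regions. The log2 fold was -1.57 ± 0.21 at the smallest p, and 7 regions were closed without replicate 3 of the SMARTA-free group.

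Pik3r1, the main regulatory subunit of class I PI3K, held 7 closed and 0 opened of 33 regions (log2 fold -1.51 ± 0.24 at the smallest p, edgeR adjusted p = 0.0027). It held 2 without replicate 3 of the SMARTA-free group or replicate 3 of the SMARTA group. Pik3cg, a catalytic subunit, and Pik3ap1, an adaptor, held 3 closed regions each, of 16 and 27 (1 at Pik3cg without replicate 3 of the SMARTA group). Among phosphatases, Inpp5b held 3 closed of 8 regions (5 without replicate 2 of the SMARTA group). Foxo1, a factor that AKT excludes from the nucleus, had 2 closed of 28 regions (1 without replicate 2 or 3 of the SMARTA-free group). Tec, a kinase recruited by PIP3, had 4 closed and 1 opened of 14, and the opened one was called in 1 of 6 settings that left out a library. Dock2, an exchange factor for Rac, had 4 closed of 34 (2 without replicate 2 or 3 of the SMARTA-free group or replicate 3 of the SMARTA group). Over all regions 10.4% were closed. The share was 11.8% at Dock2, 11.1% at Pik3ap1 and 7.14% at Foxo1, near or below that, so nothing is read from these counts. It was 18.8% to 37.5% at the other genes of this paragraph.

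Opened pathway regions were spread thinly, at 4.57% of the pathway regions beside 4.68% of all regions. Rptor, the scaffold of mTOR complex 1, held 4 opened regions and 1 closed region of 24, that with the smallest p going from 3.57 ± 0.28 to 4.67 ± 0.25 log2 CPM (1.11 ± 0.19, edgeR adjusted p = 0.0041). Only 1 opened region was left there without replicate 2 of the SMARTA-free group, and the closed one was lost without that library, replicate 1 of the same group or replicate 3 of the other. Mtmr12, which encodes a myotubularin-related protein without catalytic activity, held 3 opened of 10, with a log2 fold of 0.24 ± 0.06 at the smallest p, and 1 without replicate 1 or 3 of the SMARTA-free group or replicate 3 of the SMARTA group.

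**Figure D4:**
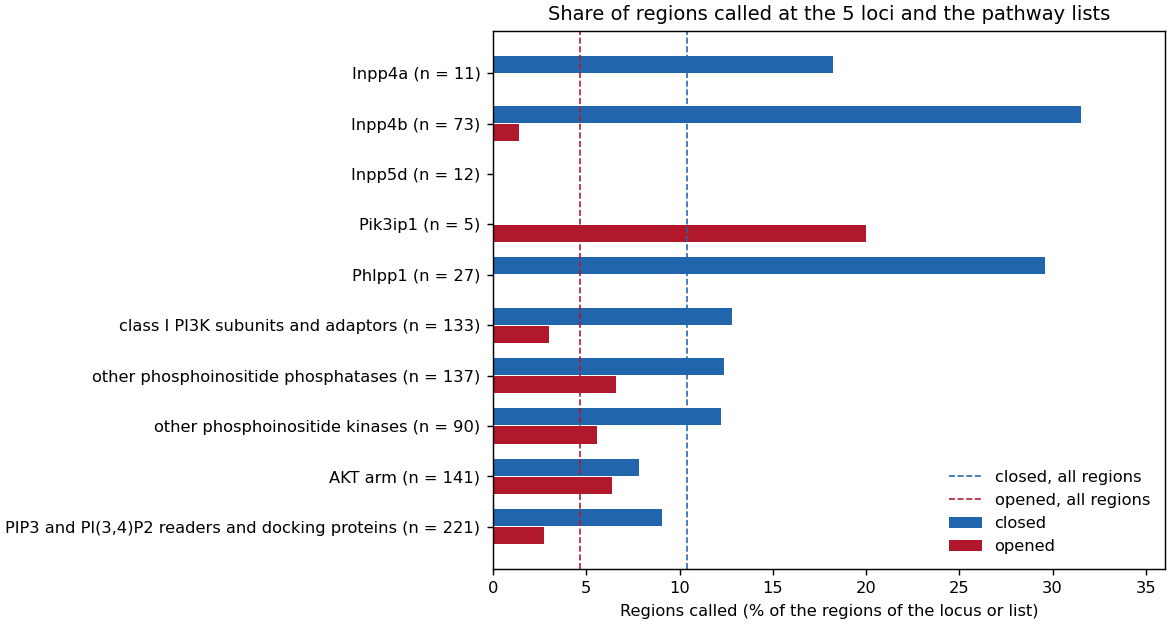
Share of regions closed (blue) and opened (red) at each of the 5 genes and each pathway list, in percent of the regions given as n. Dashed lines mark all regions (10.4% closed, 4.68% opened); Inpp4b at 31.5%, Phlpp1 at 29.6% and Inpp4a at 18.2% closed and Pik3ip1 at 1 of 5 regions opened lie beyond them, these genes having been chosen by that difference, and the lists lie from 7.80% to 12.8% closed.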

How the data were processed

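ATAC-seq libraries of OT1 CD8 T cells, 3 without and 3 with SMARTA cells, were grouped by their titles. The authors deposited whole-number counts per region, with no normalization, and per-library peak lists whose columns give a score, a fold enrichment (a ratio), a −log10 p and a −log10 q. Per the submitters' processing notes the tools were DiffBind 3.4.11, MACS2 2.1.1, BWA 0.7.17, Picard 2.18.9 and SAMtools 1.8 with build GRCm38, named without roles. No source used here states duplicate removal, the transposase read shift or region filters, and leftover duplicates would inflate counts.

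Counts were fitted with edgeR 4.0.16 in R 4.3.3 (TMM, filterByExpr, which removed 0 of 74686 regions, glmQLFit, glmQLFTest, Benjamini-Hochberg threshold 0.05). SE is the fold's size over the root of F. Log2 CPM uses a prior count of 2. The biological coefficient of variation was 18.0%. The code was tested on simulated counts. Replicates may be technical, in which case a p-value reflects technical spread alone.

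The members and lists were chosen with earlier results of these data known. Named per gene were the most accessible region, the one nearest the start, up to 4 closed and 4 opened by p, and those nearest the threshold; per pathway list, up to 3 genes with most called regions in each direction, ties left out. Some genes that this rule names are not reported here. Without a genome or proteins, regions were not searched for motifs or split into exonic and intronic, and the planned protein comparison was not run. Alternatives were RLE, total-count and loess scaling, a mean count of 20, no filter, DESeq2 1.42.0, a replicate block, each library left out, and other distances.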

Additional observations from a re-analysis of the deposited data

How the results depend on the processing

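The 23 closed Inpp4b regions were 22 to 24 under every scaling, filter, tool and the replicate block, and 16 to 24 when 1 library was left out. The 8 closed Phlpp1 regions were 7 to 9 and 5 to 8 in the same order, and the 2 closed at Inpp4a were 2 or 3 and 1 to 3. Inpp5d held 0 called regions in every setting, DESeq2 included. With loess scaling 3 Inpp4b regions opened, and with DESeq2 2 did (0 to 2 without 1 library). With DESeq2 1 Inpp4a region opened. The count of opened Pik3ip1 regions was 0 with total-count scaling, loess scaling and DESeq2, and 0 to 1 without 1 library. Over the whole table, leaving out 1 library gave 4403 to 8410 closed and 1224 to 4259 opened regions, and at the other pathway genes 48 to 82 and 11 to 48. The summed Phlpp1 difference of -0.21 was -1.15 with regions inside the gene only, which drops all 11 intergenic regions, that at the start among them. The cause of the other moves was not tested. Libraries with the same replicate number did not deviate together (r = -0.02, -0.0776 and 0.0764). This does not tell whether they were collected or handled together, which the titles do not say. With the replicate block, 22 Inpp4b, 8 Phlpp1 and 3 Inpp4a regions closed, and 1 region opened at each of Inpp4b and Pik3ip1, at Pik3ip1 a region other than the one at 5.25 kb. Weak regions limit precision: the Inpp4b region at 388.3 kb held 15 to 20 counts in each library with SMARTA cells.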
